A study of Mus musculus with 2 samples.

Results

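The histone genes of 4T1 cells were examined with and without astragalin (AS). They were taken as all rows of the deposited expression table whose symbol follows the naming of histone genes, and 15 of the 14197 genes in the table met this rule. Of these, 8 are replication-dependent genes of the histone clusters and 7 are replacement variants. 4T1 is a murine mammary carcinoma line, labelled as wild type in genotype, and AS is a plant flavonoid. The cells of the AS group were treated with 20 μM AS for 24 h in vitro, and those of the other group received the vehicle. RNA-sequencing was performed on 1 library per group, so no difference below has a replicate check, no p-value was computed, and intervals cover counting error only. The depth of the libraries, as found from the table, was 44909703 reads for AS and 50820647 for the vehicle. With bulk RNA, fewer cells that make a transcript and less of it per cell cannot be told apart.

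Histones package DNA into nucleosomes, with H2A, H2B, H3 and H4 in the core and H1 as the linker on the DNA between cores. Replication-dependent histone genes lie in clusters and are transcribed mainly in S phase, and their mRNA usually ends in a conserved stem-loop, bound by the protein SLBP, in place of a poly(A) tail. Replacement variants are encoded by single genes outside the clusters, are usually made throughout the cell cycle, and usually have polyadenylated mRNA. A preparation of mRNA through the poly(A) tail therefore holds little of the usual cluster transcripts. H2ax is counted here as a replacement variant, though its transcript also holds the sequence of a stem-loop. The labels name a stranded mRNA kit and do not state how mRNA was selected.

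The stem-loop is shown for the 7 histone genes whose transcripts hold its letters, because the usual cluster mRNA ends just after it and several annotated transcripts run on far past it. Transcripts were those of GENCODE M21 (GRCm38), searched on the sense strand for a stem of 6 bases that starts with GG, a loop of TTTN and the reverse complement of the stem. The letters were present in 6 of the 8 cluster genes and in H2ax among the 7 replacement variants. Of the 70 genes of that annotation named as cluster histones 62.9% held them, against 0.178% of the 13514 genes of the table found there. Capitals mark the stem-loop and lower case the 5 bases on either side, all in the 3′ UTR and written 5′ to 3′ on the strand of the gene. H2ac25 was matched to Hist3h2a by exon length, and the RefSeq table gives that older name to H2aw, so its position, sequence and reads rest on this match.
H2ac19, chr3:96239779-96239804, minus strand: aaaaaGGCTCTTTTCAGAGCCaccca
H2ac25, chr11:58955167-58955192, plus strand: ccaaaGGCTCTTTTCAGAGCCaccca
H2bc6, chr13:23585526-23585551, minus strand: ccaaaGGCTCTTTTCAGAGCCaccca
H1f2, chr13:23739507-23739532, plus strand: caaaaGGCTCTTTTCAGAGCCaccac
H1f3, chr13:23555782-23555807, plus strand: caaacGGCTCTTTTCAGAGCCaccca
H1f4, chr13:23621777-23621802, minus strand: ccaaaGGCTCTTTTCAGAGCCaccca
H2ax, chr9:44335235-44335260, plus strand: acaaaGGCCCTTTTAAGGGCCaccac

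The 16 bases were identical in the 6 cluster genes and differed in H2ax. In H2ac19 the annotated transcript ended 35 bases after the stem-loop. In the other 6 genes it ran on, by 822 bases in H2ax, 840 in H1f2, 1153 in H1f4, 1643 in H2ac25, 1861 in H2bc6 and 4884 in H1f3. H2bc21 and H2bc4 did not hold these letters in their annotated transcripts of 2620 and 1156 bases. The letters of a poly(A) signal, AATAAA or ATTAAA, stood in the last 50 bases of the longest coding transcript of 4 cluster genes (H1f2, H2bc6, H2ac25 and H2bc21) and of 6 replacement variants, against 79% of the 11220 coding genes of the table. H2ac19 was thus the histone gene of the table annotated only as the short form that ends at the stem-loop. Reads beyond the stem-loop could not be separated from those before it, since the table gives 1 value per gene.

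**Figure D1:**
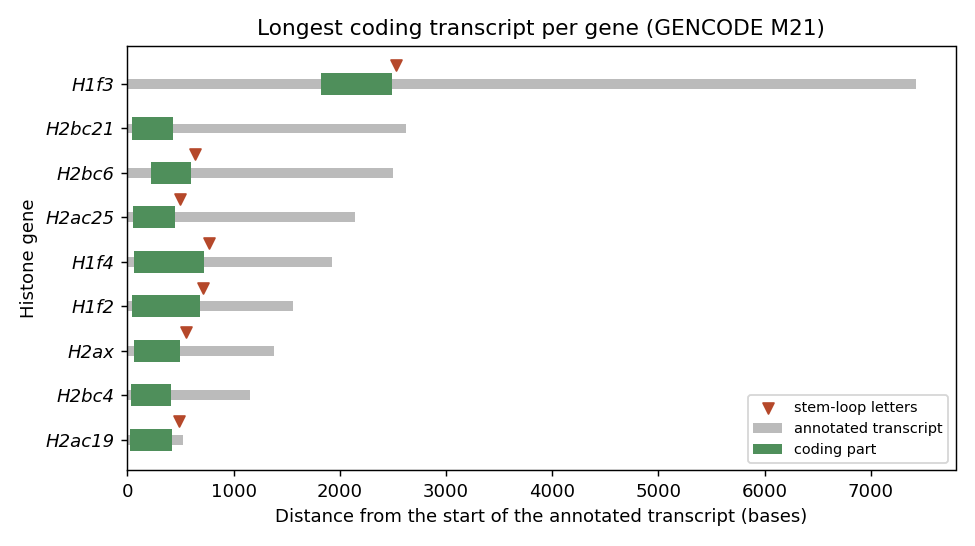
Longest annotated coding transcript (GENCODE M21) of the 8 cluster genes and H2ax, with the distance from its start in bases on the x axis, the coding part in green and the stem-loop letters as triangles. The transcript of H2ac19 ends 35 bases after the stem-loop, and those of the other marked genes run on by 822 bases or more.

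The label of the cells was checked against marker genes. All 8 epithelial markers were in the table, led by Krt18 with 707 RPKM (reads per kilobase of exon and per library size) with AS and 902 RPKM with the vehicle. Their summed level was 1809 RPKM with AS and 2324 RPKM with the vehicle. Of the 8, 7 were lower with AS, where 39.1% of all genes were lower. Their median log2 ratio, AS over vehicle, was -0.22. Krt19 alone of them differed by more than 1.5-fold, with 136 and 226 RPKM. Of all genes 2.01% were lower and 3.56% higher by 1.5-fold or more. Krt8 had 372 and 540 RPKM and Epcam 335 and 357 RPKM. Of the 6 leukocyte markers, Ptprc and Itgam were in the table, at 0.407 RPKM or less in either library, and 0 of the 4 endothelial markers were in the table. Of the 4 fibroblast markers, Pdgfra had 4.24 and 4.16 RPKM and Col1a1 0.896 and 0.711 RPKM. Whether other cell types were present or had any part in the histone values was not tested.

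Most histone genes had a lower level in the AS library. Each change is a log2 ratio, AS over vehicle, of RPKM values to which 0.1 had been added, and for genes of low level it comes out too small. By this ratio 13 of the 15 histone genes were lower in the AS library, where 39.1% of all genes were lower, and the median was -0.33 against 0.07 over all genes. Of the 13, H2ac25, H2bc21, H2aj and H2az2 had counting intervals that include 0, and H1f4 and H2bc6 overlap in their exons. H1f3 and H1f4 had 22 and 24 reads with AS, below the lowest mean of both libraries among genes with whole reads, 31. They were in the table through their vehicle reads, and that selection favours a fall. The share of all genes depends on the scaling, and was 50% after centring on the median of all genes and 49.1% with TMM scaling (trimmed mean of M values), where 13 histone genes were lower too. At the fold threshold of the study, a log2 ratio beyond 1, used here without its FDR limit, only H2ac19 was called, and it was lower. This call was lost with 1 RPKM added in place of 0.1, where its log2 ratio was -0.89 and 0.113% of all genes were called lower. With 0 RPKM added H1f3 was called lower as well, at -1.09, where 0.465% of all genes were. With 0.1 RPKM added, 0.31% of all genes were called lower and 0.662% higher. At 1.5-fold or more, the other fold threshold of the study, used without its p-value limit, H2ac19 and H1f4 were lower and H2bc4 was higher. Of all genes 2.01% were lower and 3.56% higher by as much. With 0 RPKM added or after centring on the median of all genes, H1f3 and H2bc6 were lower by 1.5-fold as well, which made 4 genes, and the share of all genes that were lower was 2.49% and 2.84%. With 1 RPKM added, H1f4 at -0.26 and H2bc4 at 0.55 were no longer past it, and 0.916% of all genes were lower and 1.33% higher. The shift of most histone genes was therefore smaller than either threshold.

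**Figure D2:**
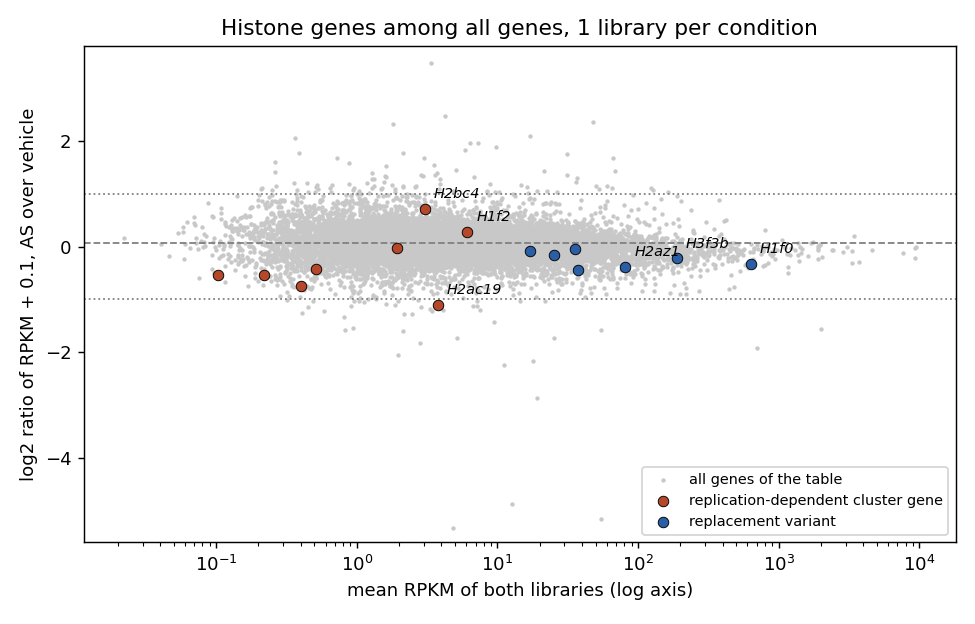
Log2 ratio of AS to vehicle against the mean RPKM of both libraries (log axis) for all 14197 genes in grey, with the cluster genes in red and the replacement variants in blue. The dashed line is the median of all genes at 0.07 and the dotted lines are the threshold of 1, which H2ac19 alone of the histone genes passes.

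The replication-dependent genes were present at low levels. The naming rule found 8 of them in the table, while GENCODE M21 names 70 genes as cluster histones. Other cluster genes were not analysed here, so the values of the class describe these 8 only. In sum they had 15.7 RPKM with AS and 16.5 RPKM with the vehicle, which was 1.70% and 1.45% of the summed level of all 15 histone genes. All core and linker classes but H3 and H4 were represented. Levels ran from 0.140 RPKM for H1f3 to 5.50 RPKM for H1f2 in the vehicle library, and every replacement variant was above the highest of them in both libraries.

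Among the cluster genes of H2A, H2ac19 encodes a core H2A and lies on chromosome 3 from 96239749 to 96240276 (Hist2h2aa2 in GENCODE M21). It had 2.36 RPKM with AS and 5.22 RPKM with the vehicle, from 56 and 140 reads. It fell by 1.11 on the log2 scale, and its reads gave a log2 ratio of -1.14 (95% Clopper-Pearson interval from -1.62 to -0.69). By the ratio of RPKM with 0.1 added it was number 32 from the lowest of all genes in the table. All of the 50-base windows of its transcript are also found in its copy Hist2h2aa1, and 21 other genes, this copy included, share at least 1 window. Gm20632 and Gm47311 overlap its exon on the opposite strand, by up to all 528 bases. The reads therefore cannot be assigned to H2ac19 alone. H2ac25, another core H2A gene (Hist3h2a, if the match by exon length holds), lies on chromosome 11 from 58954685 to 58956830. Its levels were 1.92 RPKM with AS and 1.96 RPKM with the vehicle. The read ratio was -0.03 with an interval from -0.32 to 0.26, so that no difference was detectable at this depth. Its exons overlap those of Trim17 on the same strand, and 31.5% of its windows are shared with that gene.

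Among the cluster genes of H2B, which pairs with H2A in the nucleosome, the members did not move alike. H2bc4 (Hist1h2bc, chromosome 13 from 23684199 to 23692908) had 3.81 RPKM with AS and 2.28 RPKM with the vehicle, from 198 and 134 reads. Its log2 ratio was 0.72, the highest of the histone genes, and its read ratio of 0.74 had an interval from 0.42 to 1.07. H2bc6 (Hist1h2be) had 0.160 RPKM with AS and 0.279 RPKM with the vehicle, from 32 and 63 reads. The interval of its read ratio, -1.46 to -0.16, lay below 0 while that of H2bc4 lay above it. H2bc21 (Hist2h2be, chromosome 3) had 0.425 and 0.601 RPKM, from 50 and 80 reads, and an interval from -1.04 to 0.03. The transcript of H2bc4 is made of 2 exons, and 30.1% of its windows are found in transcripts of other genes.

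The linker histones of the cluster differed from each other in the same way. H1f2 (Hist1h1c, chromosome 13 from 23738808 to 23740367) had 6.71 RPKM with AS and 5.50 RPKM with the vehicle, from 470 and 436 reads. Its log2 ratio was 0.28 and its read ratio of 0.29 had an interval from 0.10 to 0.48. H1f4 (Hist1h1e) had 0.277 RPKM with AS and 0.530 RPKM with the vehicle. It had 24 and 52 reads and a log2 ratio of -0.74. H1f3 (Hist1h1d) had the lowest level of all, 0.0660 RPKM with AS and 0.140 RPKM with the vehicle, from 22 and 53 reads over 7425 bases of exon. Its log2 ratio was -0.53 with 0.1 RPKM added and its read ratio -1.09, with an interval from -1.88 to -0.35. H1f4 and H2bc6 are not independent, as their exons overlap on the same strand of chromosome 13, and 23.8% of the windows of H1f4 are in transcripts of H2bc6. The most abundant linker gene of the cluster was thus higher with AS. The other linker genes of the cluster were lower on few reads, and were in the table through their vehicle reads.

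**Figure D3:**
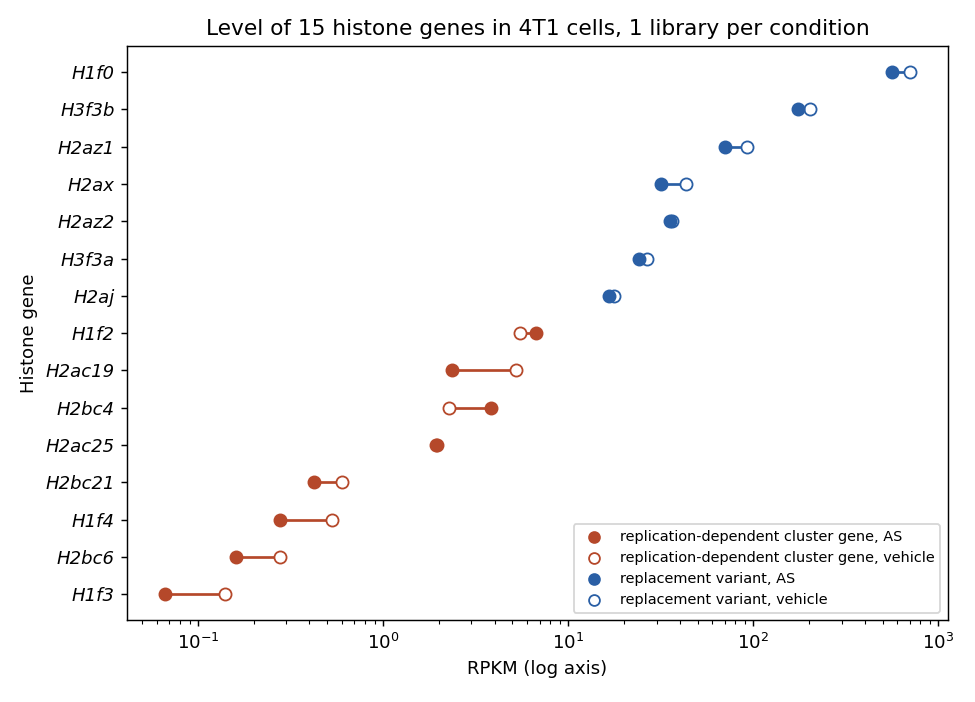
RPKM (log axis) of the 15 histone genes with AS (filled) and the vehicle (open), cluster genes in red and replacement variants in blue. Every replacement variant lies above every cluster gene, and H1f2 and H2bc4 are the genes with more RPKM in the AS library.

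The replacement variants made up the rest of the summed histone level. All 7 of them were lower in the AS library, H2aj and H2az2 with counting intervals that include 0. In sum the 7 variants had 912 RPKM with AS and 1123 RPKM with the vehicle. Of all genes 39.1% were lower, and 2.01% were lower and 3.56% higher by 1.5-fold or more. None of the 7 variants differed by 1.5-fold, which on so short a list is near those shares. Their median log2 ratio was -0.22. The linker histone H1f0, known for its high level in cells that have slowed or stopped dividing, was by far the most abundant. It lies on chromosome 15 from 79028450 to 79030504 and had 560 RPKM with AS and 704 RPKM with the vehicle, from 51658 and 73554 reads. It held rank 62 of all genes by level in the vehicle library and made up 61.8% of the summed histone level there and 60.3% with AS. Its log2 ratio was -0.33, with an interval of the reads from -0.35 to -0.32. With H1f0 left out, the log2 ratio of the summed RPKM of the variants moved from -0.30 to -0.25.

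The H2A variants had the widest range among the replacement variants. H2ax encodes the H2A that is phosphorylated at DNA breaks and lies on chromosome 9 from 44334694 to 44336077. It had 31.9 RPKM with AS and 43.4 RPKM with the vehicle, from 1983 and 3051 reads, and its log2 ratio of -0.44 was the lowest of the variants, with an interval from -0.53 to -0.36. H2az1, one of the genes of H2A.Z, which marks promoters, had 70.5 RPKM with AS and 91.9 RPKM with the vehicle, and a log2 ratio of -0.38. The other gene of H2A.Z, H2az2, had 35.3 and 36.2 RPKM and a log2 ratio of -0.04. The read ratio of H2az1 had an interval from -0.43 to -0.33 and that of H2az2 one from -0.11 to 0.04, so the gap between these genes exceeded their counting error. Of the windows of H2az1, 16.9% are also in transcripts of other genes, Gm8203 foremost, against 0% of those of H2az2. The level of H2az1 was 2.54 times that of H2az2 with the vehicle and 2.00 times with AS. H2aj, a variant close to core H2A, had 16.7 and 17.6 RPKM, with an interval from -0.18 to 0.03.

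Both genes of H3.3, the H3 variant placed into chromatin outside of replication, were in the table. H3f3b, on chromosome 11 from 116021912 to 116027962, had 174 RPKM with AS and 203 RPKM with the vehicle, a log2 ratio of -0.22 with an interval from -0.25 to -0.20. H3f3a, on chromosome 1 from 180800832 to 180813943, had 24.0 and 26.7 RPKM, a log2 ratio of -0.16 with an interval from -0.22 to -0.09. The intervals overlap, and the level of H3f3b was 7.60 times that of H3f3a with the vehicle and 7.26 times with AS. For H3f3a 12.3% of the windows are also in transcripts of other genes, H3f3c foremost. Outside of the naming rule, the centromeric H3 variant Cenpa had 23.5 RPKM with AS and 25.7 RPKM with the vehicle. Macroh2a1, chosen after its values were seen, had 31.6 and 33.1 RPKM. Each was lower by 0.13 or less on the log2 scale.

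**Figure D4:**
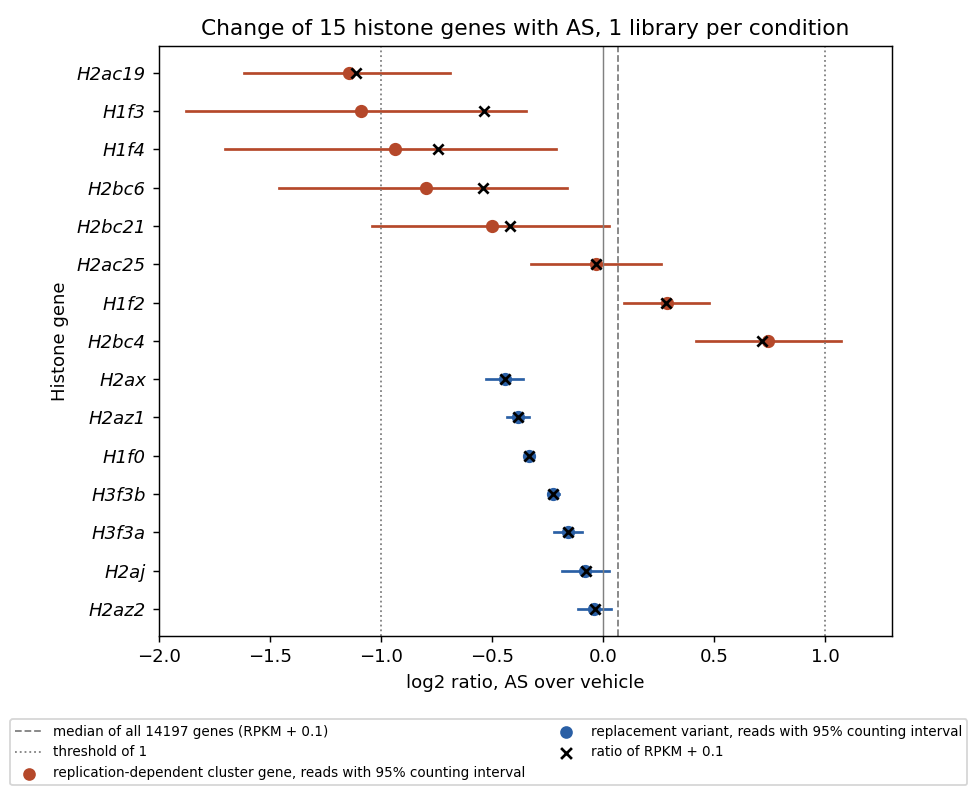
Log2 ratio of AS to vehicle for the 15 histone genes, from reads with 95% Clopper-Pearson intervals (points and bars, counting error only) and from RPKM + 0.1 (crosses). The cluster genes spread from -1.14 to 0.74 by reads with wide intervals, and the replacement variants lie between -0.44 and -0.04 with narrow ones.

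The classes were set against each other by their medians and sums. The median log2 ratio was -0.48 for the cluster genes and -0.22 for the replacement variants, against 0.07 over all genes. The summed level had a log2 ratio of -0.07 for the cluster genes and -0.30 for the variants, against -0.06 over all genes. The order of the classes thus differed between these measures, and it moved with other choices as well. With 1 RPKM added the cluster median of -0.12 stood above the variant median of -0.22. With H2ax counted among the cluster genes the log2 ratio of the sums was -0.33 for the cluster genes and -0.30 for the variants, the same order as by the medians, which were then -0.44 and -0.19. The cluster median moved with genes of few reads, and among cluster genes with a mean of at least 1 RPKM it was 0.13, of the opposite sign. The cluster sum rests on H2ac19, and without it the log2 ratio of the sum was 0.24. The variant median kept its sign in every alternative tried.

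Genes that make and process histone mRNA were given beside the histone genes from a list of 24, all in the table. Of these, 16 were lower and 8 higher, where 39.1% of all genes were lower, and the median log2 ratio was -0.05. At 1.5-fold or more 1 was lower and 0 were higher, which on a list of 24 is near the 2.01% lower and 3.56% higher of all genes. The gene past the threshold was Slbp, which encodes the protein that binds the stem-loop shown above. It had 24.2 RPKM with AS and 36.9 RPKM with the vehicle. It had 6609 and 11407 reads and a log2 ratio of -0.61. Srrt, the most abundant gene of the list in the vehicle library, encodes a factor that ties the mRNA cap to processing and had 42.0 and 62.9 RPKM, just inside the threshold. Npat and Casp8ap2, whose proteins drive transcription of the histone clusters, were chosen after their values were seen. Npat had 4.69 and 4.71 RPKM and Casp8ap2 9.54 and 9.88 RPKM. Cpsf3, the endonuclease that cuts after the stem-loop and the third most abundant gene of the list, had 20.9 RPKM with AS and 20.2 RPKM with the vehicle.

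Histone chaperones and exchange factors carry histones to chromatin, and all 35 on the list were in the table. Their median log2 ratio was -0.03 against 0.07 over all genes. Of the list, 20 were lower and 15 higher, so 57.1% were lower against 39.1% of all genes. At 1.5-fold or more, 2.01% of all genes were lower and 3.56% higher. Of the 35 on the list, 1 gene was lower and 0 were higher by as much, near those shares. That gene was Nasp, a chaperone of H3 and H4 that keeps a reserve of them, with 42.2 RPKM with AS and 64.4 RPKM with the vehicle and a log2 ratio of -0.61. The most abundant, Npm1, Nap1l1 and Dek, had log2 ratios of -0.07, -0.02 and -0.12. The forms of the chaperone ASF1 had ratios of opposite sign, chosen after their values were seen. Asf1b, which is tied to proliferation, had 4.67 and 6.28 RPKM and Asf1a 5.78 and 4.11 RPKM. The subunits of the replication-coupled factor CAF-1, Chaf1a and Chaf1b, also chosen after their values were seen, had ratios of -0.30 and -0.40.

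S-phase genes and RNA without a poly(A) tail moved in the same direction as most histone genes, and their part in the histone values was not tested. Of 55 S-phase genes 54 were lower, 14 of them by 1.5-fold or more and 0 higher by as much, with a median of -0.38. Of all genes 39.1% were lower, 2.01% were lower and 3.56% higher by 1.5-fold, and the median was 0.07. The summed level of the list was 861 RPKM with AS and 1154 RPKM with the vehicle. Cdc6, a replication licensing factor, had 1.75 and 3.98 RPKM and was the gene called at 1, where 0.31% of all genes were called lower. Ung, Rrm2, Mcm2, Lig1 and Uhrf1 followed with log2 ratios from -0.91 to -0.69. Lig1, the DNA ligase of the replication fork and the most abundant of the list, had 68.5 RPKM with AS and 110 RPKM with the vehicle, and the helicase subunit Mcm3 had 42.2 and 64.5 RPKM. Slbp, Casp8ap2, Nasp and Chaf1b belong to this list as well as to those above.

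The table also held 18 small RNAs without a poly(A) tail, of which 15 were lower and 3 higher with AS, with a median of -0.30, where 39.1% of all genes were lower and 0.31% were called lower. Their summed level was 367 RPKM with AS and 449 RPKM with the vehicle. The called genes, all lower, were Rpph1, the RNA of RNase P, and Rn7s1 and Rn7s2, copies of the 7SL RNA of the signal recognition particle. Rpph1 had 2 reads with AS and 154 with the vehicle, Rn7s1 10 and 376 reads, and Rn7s2 16 and 68 reads. The 15 small nucleolar RNAs, a class that usually lies within host genes, had log2 ratios between -0.55 and 0.48. The most abundant, Snord57, Snord96a and Snord22, had 46.1, 78.1 and 51.2 RPKM with AS and 67.5, 66.8 and 62.2 RPKM with the vehicle.

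**Figure D5:**
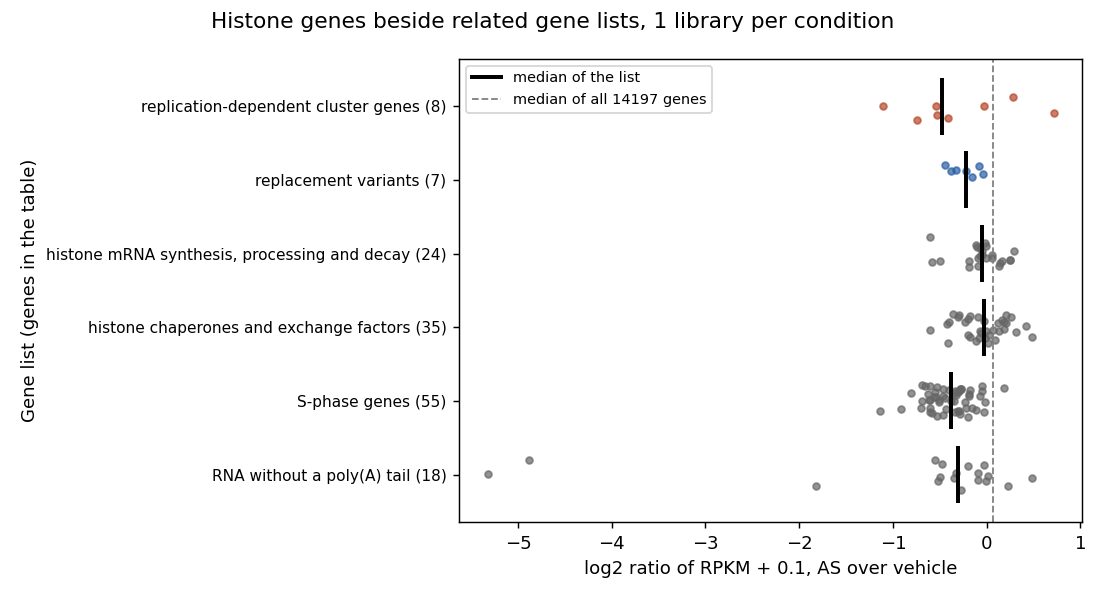
Log2 ratio of RPKM + 0.1 (x axis) of each gene in the histone classes and the related lists, with the number of genes in brackets, a bar at the median of each list and a dashed line at the median of all genes. The S-phase genes have a median of -0.38, the replacement variants of -0.22 and the chaperones of -0.03.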

How the data were processed

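RNA of 1 AS and 1 vehicle library was measured. The authors deposited 1 table with an RPKM per library, the log2 CPM averaged over libraries, and their fold change with p-value and FDR, which were not used. Its header does not name the RPKM unit, which was found from the values. The submitters' processing notes name fastp 0.23.4, STAR 2.5.3a, featureCounts and the build GRCh38, a human build, while labels and symbols are murine. The filter on low genes, the annotation and the handling of reads that match several genes are not given in the sources used here. Coordinates and transcripts come from GENCODE M21 (GRCm38), and the authors' mouse build is unknown.

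Reads were recovered as RPKM times exon length times the library size that made low values whole (tolerance 0.05 of a read, wider for deep genes), and 12769 of 13514 genes with a single M21 entry (94.5%) were whole in both libraries. For H1f0, H3f3b and H2az1 the reads are too many for this to be a check. Older symbols of the members came from RefSeq synonyms, except H2ac25, for which 1 histone exon length gave whole reads. Log2 ratios used the authors' RPKM with 0.1 added, with no filter on low values beyond that of the deposited table. All 15 members entered the main counts, and 11 entered those with a mean of at least 1 RPKM. Among genes with whole reads, the lowest mean of both libraries was 31 reads. Intervals are 95% Clopper-Pearson. Shared windows are runs of 50 bases.

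Members and lists were chosen with earlier results of these data known. All replacement variants, the cluster genes and, of other lists, up to 6 genes past 1.5-fold and the 3 of highest vehicle level are named. Scripts were tested on simulated data and ran in Python 3.11.15 with scipy 1.17.1. The alternatives were 0 or 1 RPKM added, centring on the median of all genes, TMM scaling of the reads, a minimum of 1 RPKM, and 3 choices of members made after seeing the data.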

Additional observations from a re-analysis of the deposited data

How the results depend on the processing

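No paired analysis was possible because each group had 1 library. All 15 histone genes kept the sign of their log2 ratio in the alternatives that kept them. The single called gene became 2 with 0 RPKM added, where 66 of all genes (0.465%) were called lower, and 0 with 1 RPKM added, where 16 (0.113%) were, against 44 with 0.1 RPKM added. The histone genes lower by 1.5-fold or more were 4 rather than 2 with 0 RPKM added or after centring on the median of all genes. Of all genes 2.49% and 2.84% were then lower by as much, against 2.01% with 0.1 RPKM added. With 1 RPKM added, 1 histone gene was lower and 0 were higher by as much, where 0.916% of all genes were lower and 1.33% higher. With a mean of at least 1 RPKM, 1 was lower and 1 higher, where 1.82% of all genes were lower and 2.75% higher. The cluster median was -0.65 with 0 RPKM added and -0.12 with 1 RPKM added, and it reversed to 0.13 with a mean of at least 1 RPKM, which leaves 4 of the 8 genes. The variant median was -0.29 after centring and -0.29 with TMM scaling, and the log2 ratio of the variant sums was -0.37 and -0.36. With H2ax counted among the cluster genes the variant median was -0.19 and the cluster sum -0.33. Without H1f0 the variant median was -0.19 and the variant sum -0.25. Without H2ac19 the cluster sum reversed to 0.24. Centring split the calls of all genes into 57 lower and 75 higher, against 44 and 94, and the share of all genes below 0 rose from 39.1% to 50%. Depth limits the cluster genes most, with 22 to 80 reads per library for H1f3, H1f4, H2bc6 and H2bc21, and 1 library per group gives no spread between replicates.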
